A study of Homo sapiens with 2 samples.

Results

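Mitochondrial protein import is carried out by translocases, chaperones and peptidases that bring nuclear-encoded precursor proteins into the organelle. The 34 genes described here were listed by symbol, from the outer membrane to the presequence-processing enzyme of the matrix, out of 28130 genes to which the deposited transcripts were assigned. Genes whose CPM (counts relative to library size, TMM-scaled) averaged 1 or more are called measured, and these were 13752 genes, all 34 import genes among them. Poly-A RNA came from HEK293T, a human embryonic kidney cell line that carries the SV40 large T antigen. The control library came from cells transfected with a non-targeting RNA named GL2, and the tRF-3004b library from cells transfected with a mimetic of a tRNA-derived fragment. Both RNAs were delivered by reverse transfection with a lipid reagent at 500 nM, and the cells were taken after 120 h. Paired values give the control library first and the tRF-3004b library after it.

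Each group had 1 library, so no test between the conditions is possible, and every comparison is of these 2 libraries. Depth was 19609933 estimated counts in the control and 1809193 in the tRF-3004b sample, which is 10.8-fold fewer. The 95% intervals below are exact Clopper-Pearson intervals of the counts, and cover counting error only. All 9 marker genes listed for HEK293T had counts in both libraries, PAX2 with only 19 and 2. Their sum of 2011 and 1521 CPM stood at -0.40 on the log2 scale (interval -0.46 to -0.35). VIM, with 28858 of their 40101 control counts, stood at -0.56, NEFL at -0.89 and IGF2BP1 at -0.33. Above 0 were INA (1.22), KRT18 (0.67), KRT8 (0.64), NEFM (0.33), LIN28B (0.31) and PAX2 (0.22). The intervals of KRT8, NEFM and PAX2 held 0. Summed markers of other cells were higher after tRF-3004b, with 33.2 and 113 CPM for 7 fibroblast genes, 10.7 and 38.8 CPM for 7 epithelial genes, and 3.11 and 23.6 CPM for 7 blood genes. Among them FBLN1, with most of the control counts of the fibroblast list, had 23.7 and 20.8 CPM (log2 ratio -0.19, interval -0.71 to 0.30). KRT5 was at 0 in both libraries, CD3E in the control library and MS4A1 in the tRF-3004b library. The part of such RNA in the import genes' values was not tested.

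Nearly all mitochondrial proteins are made in the cytosol and enter through the TOM complex of the outer membrane. From there, presequence proteins pass the TIM23 complex and are pulled into the matrix by the HSP70 motor, while carrier proteins are escorted by small TIM chaperones to the TIM22 complex. Beta-barrel proteins are inserted by the SAM complex, and cysteine-rich proteins of the intermembrane space are trapped by disulfide formation through CHCHD4 and GFER.

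The 2 transfected RNAs are shown because their bases 2 to 8, in capitals, are the part by which small RNAs loaded on Argonaute proteins pair with their targets. The tRF-3004b mimetic had 22 bases and the control RNA 21.
tRF-3004b: uCAAAUCUcgguggaaccucca
control RNA: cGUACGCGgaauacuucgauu

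In the 3' UTR of the transcript paired with each gene's most abundant RefSeq transcript, the complement of the tRF-3004b seed, AGATTTG, was found for 4 of 34 import genes (11.8%), against 15.0% of 11194 genes searched. The 5 sites are printed with the matching bases in capitals, on the strand of the transcript. They are a description of letters, and binding was not measured. The sites of CHCHD4, TIMM44 and TOMM70, and the first of GRPEL2, are not followed by an A, and the second of GRPEL2 is.
GRPEL2 site 1, chr5:149352618-149352646, plus strand: tgttctgtaaaAGATTTGtccaataaacg
GRPEL2 site 2, chr5:149353303-149353331, plus strand: tccattctgtgAGATTTGacagatggtga
TOMM70, chr3:100363939-100363967, minus strand: tgaaaccaaaaAGATTTGtctacaaatgc
CHCHD4, chr3:14112291-14112319, minus strand: ttggatgatgaAGATTTGgacccttccat
TIMM44, chr19:7926740-7926767, minus strand: gcataagcctgAGATTTGgaaagaataa

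The 4 genes with a site did not share a direction. GRPEL2 and TOMM70 were lower in the tRF-3004b library, with log2 ratios of -0.49 and -0.39, while CHCHD4 and TIMM44 were higher, at 0.71 and 0.68. Over the import genes the median log2 ratio was 0.15 for the 4 with a site and 0.71 without. Over all searched genes it was -0.25 with a site and -0.08 without. The GRPEL2 3' UTR is 3301 bases long and that of TOMM70 2133, against a median of 816 over the import genes. Over all measured genes longer transcripts had lower ratios. The part of the sites or of length in these values was not tested.

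Most import genes were higher in the tRF-3004b library, and none was lower by 2-fold. The log2 ratio, tRF-3004b over control after TMM scaling, was above 0 for 28 of 34 import genes, against 44.5% of all measured genes. The median was 0.68 for the import genes and -0.11 for all genes. The counts summed over the 34 genes gave 3371 and 3813 CPM, at only 0.18 (interval 0.14 to 0.21). TOMM20 held 24755 of their 67218 control counts, and without it the sum stood at 0.48 (interval 0.44 to 0.53). At least 2-fold higher were 9 import genes, against 12.2% of all genes. The 9 were the small TIM chaperones TIMM10, TIMM8B and TIMM8A, the inner-membrane channel genes TIMM17A and TIMM23, the motor genes PAM16 and GRPEL1, and the outer-membrane genes TOMM40 and TOMM5. At least 2-fold lower were 0 import genes, against 14.2% of all genes. The interval lay above 0 for 22 import genes (23.3% of all genes) and below 0 for 4 (28.6% of all genes). Those 4 were TOMM20, TOMM70, GRPEL2 and PMPCB.

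With the authors' gene TPM (a level relative to transcript length and library total) and 1 added, the median of all genes moved by -0.28, and 23 of 34 import genes were above 0 (30.5% of all genes). The import genes' median then lay 0.72 above that of all genes, against 0.78 with TMM. With TPM, 5 import genes were at least 2-fold higher (4.94% of all genes). TOMM34, TIMM9, TIMM50, PMPCA and SAMM50 changed sign on that scale.

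**Figure D1:**
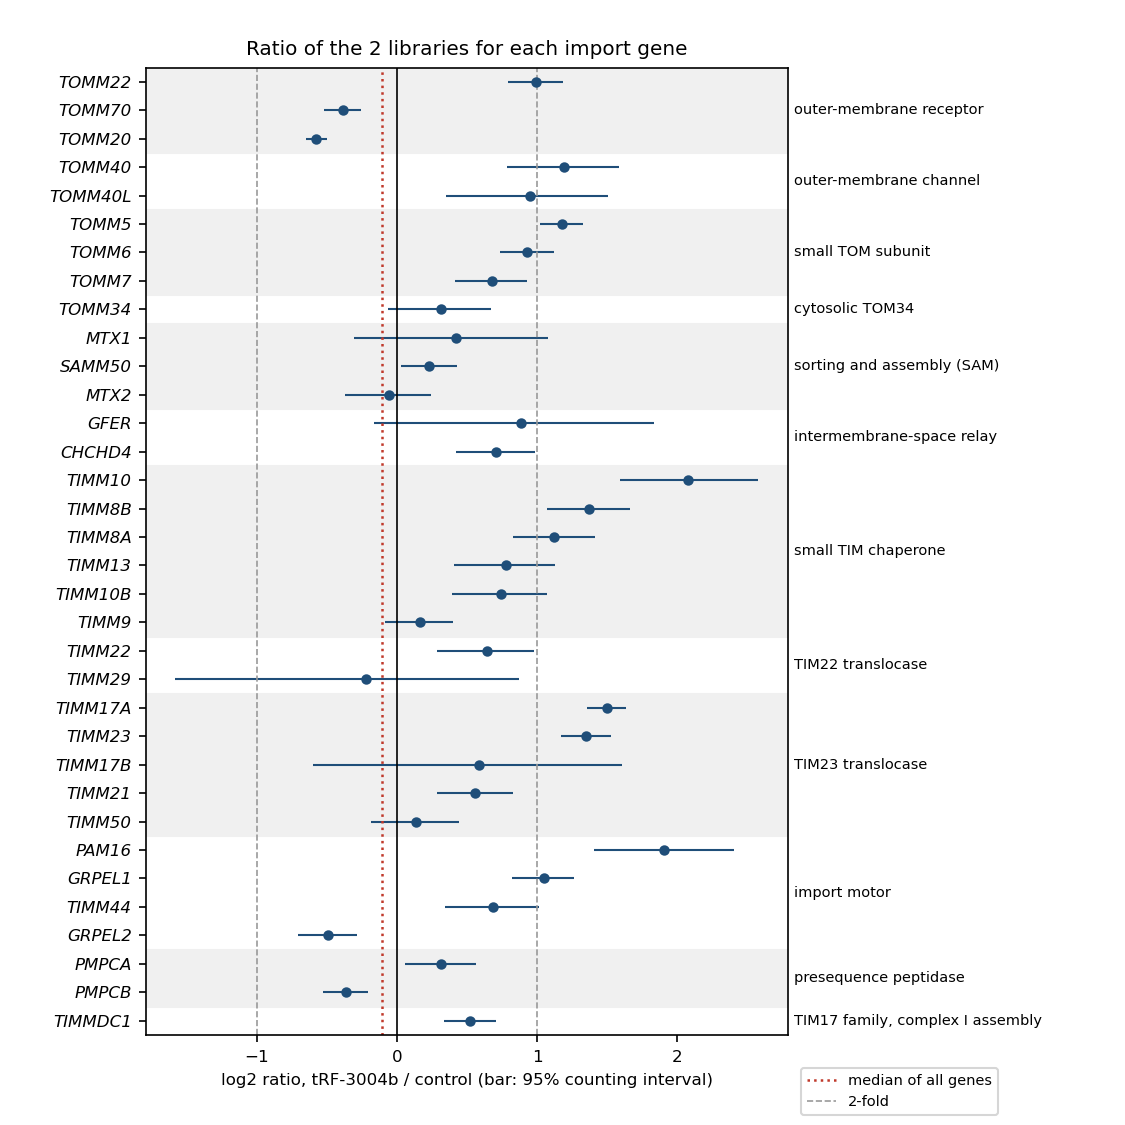
Log2 ratio of tRF-3004b over control (x axis) for the 34 import genes (y axis), grouped by role. Points are ratios of TMM-scaled counts, bars are 95% counting intervals, the dotted line is the median of all genes (-0.11) and the dashed lines mark 2-fold. TIMM10 is farthest to the right at 2.08 and TOMM20 farthest to the left at -0.58.

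Transcript length moved with these ratios. In 10 length bins of the 13752 genes, those of 61 to 1313 bases had a median of 0.62 and those of 7442 to 91671 bases a median of -0.44. Spearman's rho between length and log2 ratio was -0.30 over all genes and -0.54 over the 34 import genes. Genes within a library share its depth and preparation and are not independent replicates, so both are descriptions. The import genes were short, with a median length of 1682.5 bases against 3283 for all genes. All 6 import genes of at most 1000 bases were above 0, as were 77% of all genes that short. Among the 14 import genes over 2000 bases, 10 were above 0, against 38.1% of all genes that long. Over 3000 bases, 3 of 7 were above 0, against 33.2% of all genes.

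With a smooth trend of the log2 ratio on length removed from all genes, the median of the import genes was 0.48 and that of all genes 0.01. After that step 27 of 34 import genes were above 0 (50.3% of all genes), the change of sign being that of TIMM9. The number at least 2-fold higher was then 4 (11.3% of all genes), namely TIMM10 at 1.35, TIMM17A at 1.27, PAM16 at 1.07 and GRPEL1 at 1.06. On this scale the interval lay above 0 for 20 import genes (25% of all genes) and below 0 for 5 (21.7% of all genes). Those 5 were TOMM20, TOMM70, GRPEL2, PMPCB and MTX2. The source of the length trend was not tested.

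**Figure D2:**
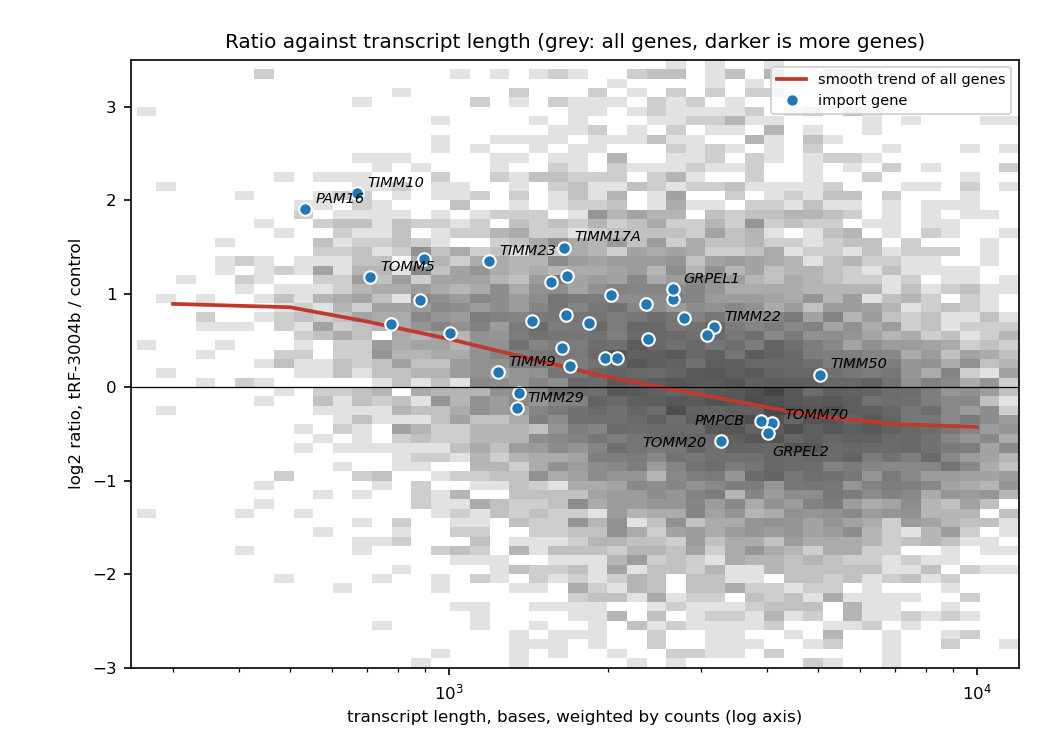
Log2 ratio (y axis) against transcript length in bases (x axis, log scale) for all measured genes (grey, darker for more genes), with the smooth trend over all genes (red) and the 34 import genes (blue). The 4 import genes with an interval below 0 lie between 3283 and 4100 bases, while TIMM21, TIMM22 and TIMM50, over 3000 bases as well, lie above 0.

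Receptors of the TOM complex stood on both sides of 0. TOMM20, which recognises presequences (chromosome 1, 235109341 to 235128837, GRCh38), had 24755 and 1480 counts, or 1241 and 833 CPM. Its log2 ratio was -0.58 (interval -0.65 to -0.50), which is 1.49-fold lower. TOMM70, which receives carrier precursors from HSP70 and HSP90 (chromosome 3, 100363431 to 100401089), had 376 and 288 CPM, from 7499 and 511 counts, at -0.39 (interval -0.52 to -0.26). TOMM22, the central receptor that links the channels (chromosome 22, 38681957 to 38685421), was 1.98-fold higher, with 69.8 and 138 CPM, at 0.99 (interval 0.79 to 1.19). Both lower receptors have transcripts over 3000 bases (3283 and 4100), and that of TOMM22 has 2031. With the length trend removed TOMM20 stood at -0.45, TOMM70 at -0.16 and TOMM22 at 0.89.

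The channel and its small subunits were higher. TOMM40, the beta-barrel pore (chromosome 19, 44891254 to 44903689), had 314 and 64 counts, or 15.7 and 36.0 CPM, which puts it at 1.19 (interval 0.78 to 1.59). Its paralog TOMM40L had 180 and 31 counts and stood at 0.94 (interval 0.35 to 1.51). The small subunits, which stabilise the assembled pore, were all above 0. TOMM5 (chromosome 9, 37588413 to 37592597) had 106 and 239 CPM, at 1.18 (interval 1.02 to 1.33). TOMM6 had 76.0 and 145 CPM, at 0.93. All 635 of the 31-base words of its GENCODE transcripts also occur in the GENCODE gene AL365205.1, which was not among the genes counted here. The TOMM6 counts are on a RefSeq transcript of 881 bases, whose own words were not compared. How many of its reads could come from that gene is not known. Such words are pooled over all GENCODE transcripts of a gene, here and below, so the share within a counted RefSeq transcript can differ. On that basis TOMM5 shares 13.3% of its words with AL138752.2, and TOMM40 11.1% with AC093724.1 and 10.1% with AP000523.1. TOMM7 had 51.9 and 82.7 CPM, at 0.67. The transcripts of TOMM5, TOMM6 and TOMM7 are short (708, 881 and 776 bases), and with the length trend removed they stood at 0.48, 0.34 and 0.02. The ratio of TOMM7 was thus nearly that of other genes of its length. TOMM34, a cytosolic cochaperone of HSP70 and HSP90 named with the TOM genes, had 632 and 70 counts at 0.31 (interval -0.06 to 0.67), and was just below 0 with TPM (-0.026).

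With TMM scaling the SAM complex was close to level between the libraries. SAMM50, the insertase of beta-barrel proteins (chromosome 22, 43955442 to 43996529), had 109 and 128 CPM and stood at 0.23 (interval 0.03 to 0.43), and at -0.11 with TPM. Its partners, the metaxins, had intervals that held 0. MTX1 had 176 and 21 counts at 0.42 (interval -0.31 to 1.08), and MTX2 had 1157 and 99 counts at -0.06 (interval -0.37 to 0.24). With the length trend removed SAMM50 stood at 0.02, MTX1 at 0.19 and MTX2 at -0.39, and the interval of MTX2 then lay below 0. MTX1 shares 615 of the 3414 words pooled over its GENCODE transcripts with its pseudogene MTX1P1, so its reads are less certainly its own. Summed over the 3 genes the SAM complex had 176 and 195 CPM, at 0.15 (interval -0.01 to 0.31).

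In the disulfide relay, CHCHD4, the oxidoreductase that traps cysteine-rich proteins in the intermembrane space (chromosome 3, 14112077 to 14124870), had 41.7 and 68.1 CPM. Its log2 ratio was 0.71 (interval 0.42 to 0.98). GFER, the sulfhydryl oxidase that reoxidises CHCHD4, had only 66 and 11 counts, at 0.89 (interval -0.17 to 1.84). Of 18 genes whose proteins are substrates of this relay, listed with earlier results known, 16 were above 0 (44.5% of all genes). At least 2-fold higher were 8 (12.2% of all genes) and at least 2-fold lower 1 (14.2% of all genes). The median of the 18 was 0.96. They are short, with a median length of 812 bases, and of all genes of at most 1000 bases 77% were above 0. With the length trend removed the median of the 18 was 0.34. The highest were NDUFB7, a complex I subunit, at 1.81 and CHCHD5 at 1.32 (26 and 6 counts, interval -0.20 to 2.69). The lowest were COX19 at -1.19 and COA5 at -0.38, both assembly factors of cytochrome oxidase.

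The small TIM chaperones, which shield hydrophobic precursors in the intermembrane space, gave the highest member of the whole machinery and one of the flattest. TIMM10 (chromosome 11, 57528464 to 57530754) had 129 and 49 counts. That is 6.47 and 27.6 CPM, 4.22-fold higher, with a log2 ratio of 2.08 (interval 1.59 to 2.58). TIMM9, with which TIMM10 forms a hexamer (chromosome 14, 58408494 to 58427531), had 78.1 and 87.2 CPM, at 0.16 (interval -0.09 to 0.40), and was below 0 with TPM (-0.16) and with the length trend removed (-0.23). TIMM8B (chromosome 11, 112084800 to 112086756) had 25.9 and 67.0 CPM, at 1.37 (interval 1.07 to 1.66), and TIMM8A, the gene mutated in deafness-dystonia syndrome (chromosome X, 101345661 to 101348742), had 30.5 and 66.4 CPM, at 1.12 (interval 0.83 to 1.41). TIMM13, the partner of TIMM8A, had 498 and 76 counts, at 0.77 (interval 0.41 to 1.13), and TIMM10B, which docks the chaperones on the TIM22 complex, had 28.6 and 47.8 CPM, at 0.74 (interval 0.39 to 1.07). TIMM13 shares 11.5% of its 31-base words with its neighbour LMNB2, which stood at -0.03.

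At the TIM22 complex, the translocase of metabolite carriers, TIMM22 (chromosome 17, 997129 to 1003671) had 29.2 and 45.6 CPM. Its log2 ratio was 0.64 (interval 0.29 to 0.98), and 0.75 with the length trend removed, since its transcript has 3182 bases. TIMM29, a metazoan subunit of the same complex, had 92 and 7 counts, at -0.22 (interval -1.58 to 0.87). The depth of the tRF-3004b library does not show on which side of 0 TIMM29 lay.

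Core subunits of the TIM23 complex, the presequence translocase, were among the highest. TIMM17A (chromosome 1, 201955503 to 201970664) had 2195 and 551 counts, or 110 and 310 CPM, 2.82-fold higher, with a log2 ratio of 1.49 (interval 1.36 to 1.63). TIMM23, its channel partner (chromosome 10, 45972489 to 46003742), had 68.4 and 174 CPM, at 1.35 (interval 1.17 to 1.53). TIMM23 shares 27.8% of its 31-base words with the near copy TIMM23B. Summed with TIMM23B and its readthrough TIMM23B-AGAP6 it stood at 1.17 (interval 1.01 to 1.34), while TIMM23B itself, with 245 and 29 counts, stood at 0.41 (interval -0.20 to 0.97). The other subunits had lower ratios, though for TIMM17B the counts were few. TIMM21, which couples the complex to the respiratory chain, had 48.9 and 72.0 CPM, at 0.56 (interval 0.28 to 0.83). The presequence receptor TIMM50 had 48.7 and 53.5 CPM, at 0.13 (interval -0.19 to 0.44), or -0.20 with TPM. Its transcript has 5037 bases, and with the length trend removed it stood at 0.44. TIMM17B, with 67 and 9 counts, was at 0.58 (interval -0.60 to 1.60), an interval that holds the ratios of TIMM17A and TIMM23. Summed over its 5 genes the complex had 280 and 615 CPM and stood at 1.14 (interval 1.04 to 1.23). Of the 1093 counts of that sum in the tRF-3004b library, TIMM17A held 551 and TIMM23 310. The median log2 ratio of the 5 genes was 0.58. Sums of the other roles ran from -0.42 for the 3 receptors to 1.11 for the 2 outer-membrane channel genes. TOMM20 held 24755 of the 33645 control counts of the receptors.

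The import motor, which uses the matrix HSP70 protein HSPA9 to pull precursors inward, held a high and a low nucleotide exchange factor. GRPEL1 (chromosome 4, 7058895 to 7068064) had 1092 and 201 counts, or 54.8 and 113 CPM, at 1.05 (interval 0.82 to 1.27). GRPEL2, its paralog (chromosome 5, 149345499 to 149354583), had 3148 and 199 counts, or 158 and 112 CPM, at -0.49 (interval -0.71 to -0.29). With the length trend removed GRPEL1 stood at 1.06 and GRPEL2, whose transcript has 4020 bases, at -0.28. PAM16, a J-like protein that restrains the motor (chromosome 16, 4340251 to 4351321), had 140 and 47 counts, or 7.02 and 26.5 CPM, at 1.90 (interval 1.40 to 2.40). PAM16 shares 520 of the 2536 words pooled over its GENCODE transcripts (20.5%) with the readthrough gene CORO7-PAM16. The share within the counted PAM16 transcript was not computed and can be higher. The sum of both genes stood at 1.82 (interval 1.33 to 2.30). The transcript of PAM16 has 533 bases, the shortest of the 34, and 1.07 was left with the length trend removed. TIMM44, which tethers HSPA9 to the channel, had 29.8 and 47.8 CPM, at 0.68 (interval 0.34 to 1.01). HSPA9 and the J protein DNAJC19, 2 motor genes outside the 34 named after their values were seen, stood at 0.14 (interval 0.05 to 0.22) and 0.57 (interval 0.29 to 0.85), and HSPA9 was lower with TPM, with 346 and 301. With the length trend removed HSPA9, whose transcript has 4404 bases, stood at 0.40 and DNAJC19 at 0.26.

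Of the matrix processing peptidase, which removes presequences, the catalytic subunit PMPCB (chromosome 7, 103297435 to 103347542) had 244 and 189 CPM and stood at -0.37 (interval -0.53 to -0.21). PMPCA, the substrate-binding subunit (chromosome 9, 136410658 to 136423761), had 66.5 and 82.7 CPM, at 0.31 (interval 0.06 to 0.56), or -0.026 with TPM. The transcript of PMPCB has 3910 bases and that of PMPCA 2086. With the length trend removed PMPCB stood at -0.16 and PMPCA at 0.23. TIMMDC1, a complex I assembly factor of the TIM17 family and no translocase subunit, had 105 and 151 CPM, at 0.52 (interval 0.33 to 0.70).

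**Figure D3:**
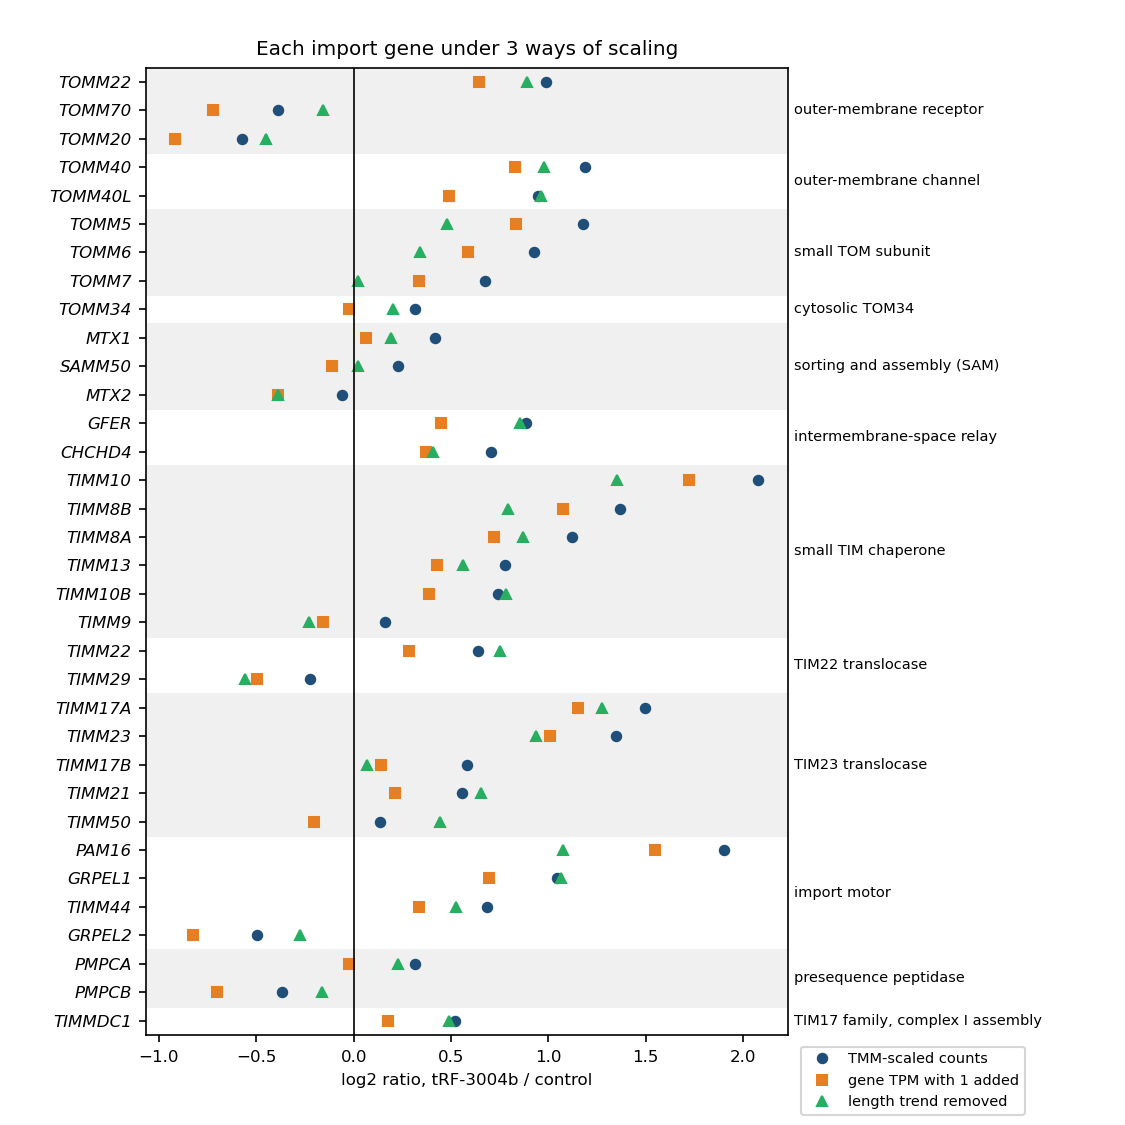
Log2 ratio of tRF-3004b over control (x axis) for each import gene (y axis) with TMM-scaled counts (circles), gene TPM with 1 added (squares) and the length trend removed (triangles). TPM lies to the left of TMM throughout, and TIMM9 is the gene that is above 0 with TMM and below 0 under both other scalings.

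Set side by side, several partners and paralogs had different ratios. The difference of 2 genes' log2 ratios does not depend on library scaling, and its exact conditional interval again covers counting error only. Of 12 pairs, chosen with the values known, 6 had an interval away from 0. GRPEL1 minus GRPEL2 was 1.54 (interval 1.23 to 1.85), TIMM10 minus TIMM9 was 1.93 (interval 1.37 to 2.48), TOMM22 minus TOMM20 was 1.56 (interval 1.35 to 1.78) and TIMM23 minus TIMM50 was 1.22 (interval 0.86 to 1.58). PMPCA minus PMPCB was 0.68 (interval 0.38 to 0.98) and TOMM70 minus TOMM20 was 0.19 (interval 0.04 to 0.34). With the length trend removed these 6 kept their sign, at 1.34, 1.58, 1.34, 0.49, 0.39 and 0.29. For TIMM17A minus TIMM17B the difference was 0.90 (interval -0.12 to 2.10), and TIMM8A minus TIMM8B was -0.25 (interval -0.66 to 0.17). The intervals of TOMM40 minus TOMM40L, MTX1 minus MTX2, TIMM13 minus TIMM8A and CHCHD4 minus GFER held 0 too, the last from -1.18 to 0.91, so they do not show that these pairs moved alike.

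**Figure D4:**
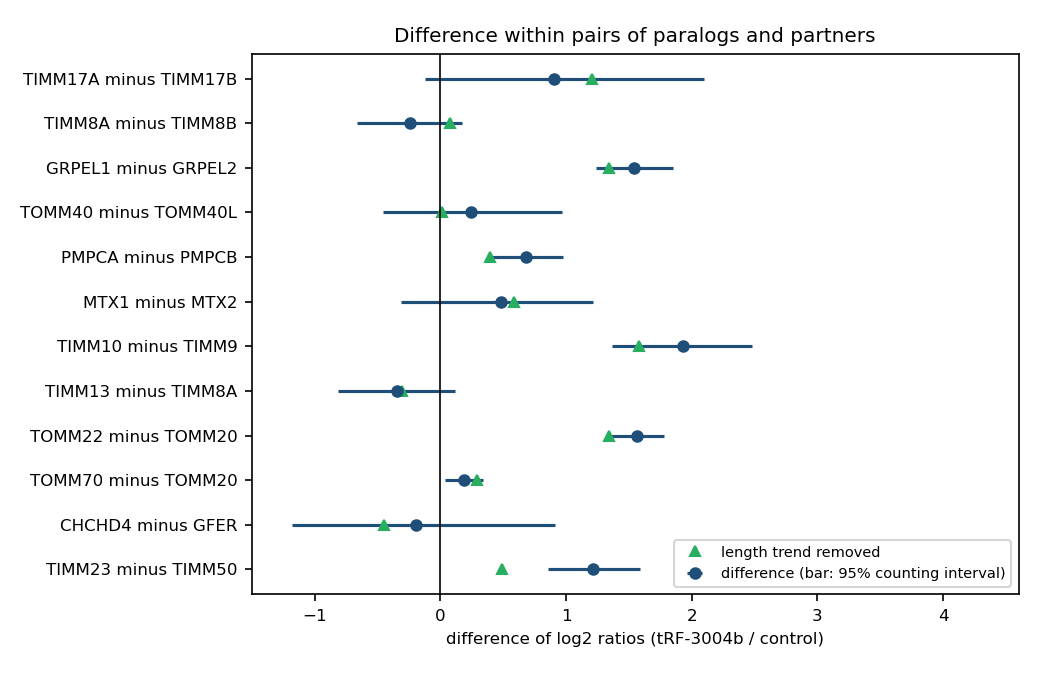
Difference between the log2 ratios of 2 genes (x axis) for 12 pairs of paralogs or partners (y axis). Circles with bars are the differences with 95% counting intervals and triangles are the differences with the length trend removed. TIMM10 minus TIMM9 is the widest gap, at 1.93.

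On the per-length scale, 1 receptor led the control library. TPM ran from 3.29 for GFER to 874 for TOMM20, a 266-fold range. TOMM20 alone held 23.5% of the TPM summed over the 34 genes in the control sample and 10.7% after tRF-3004b. After it came TOMM5 at 411, TOMM6 at 226, TOMM70 at 210 and TOMM7 at 180 TPM. In the tRF-3004b library the order was TOMM5 with 733 TPM, TOMM20 with 463, TIMM17A with 359, TOMM6 with 341 and TIMM23 with 290. The pore gene TOMM40 had 22.7 and 41.0 TPM, far below the receptor and the small subunits in both libraries. In the control sample GRPEL2 had 1.87 times the TPM of GRPEL1, and after tRF-3004b GRPEL1 had 1.56 times that of GRPEL2. The excess of TIMM9 over TIMM10 was 5.85-fold and 1.54-fold, and that of TOMM20 over TOMM22 was 10.7-fold and 3.62-fold. TIMM17A had 18.5 and 36.9 times the TPM of TIMM17B. In these bulk samples, fewer cells of a type and less RNA per cell cannot be told apart.

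**Figure D5:**
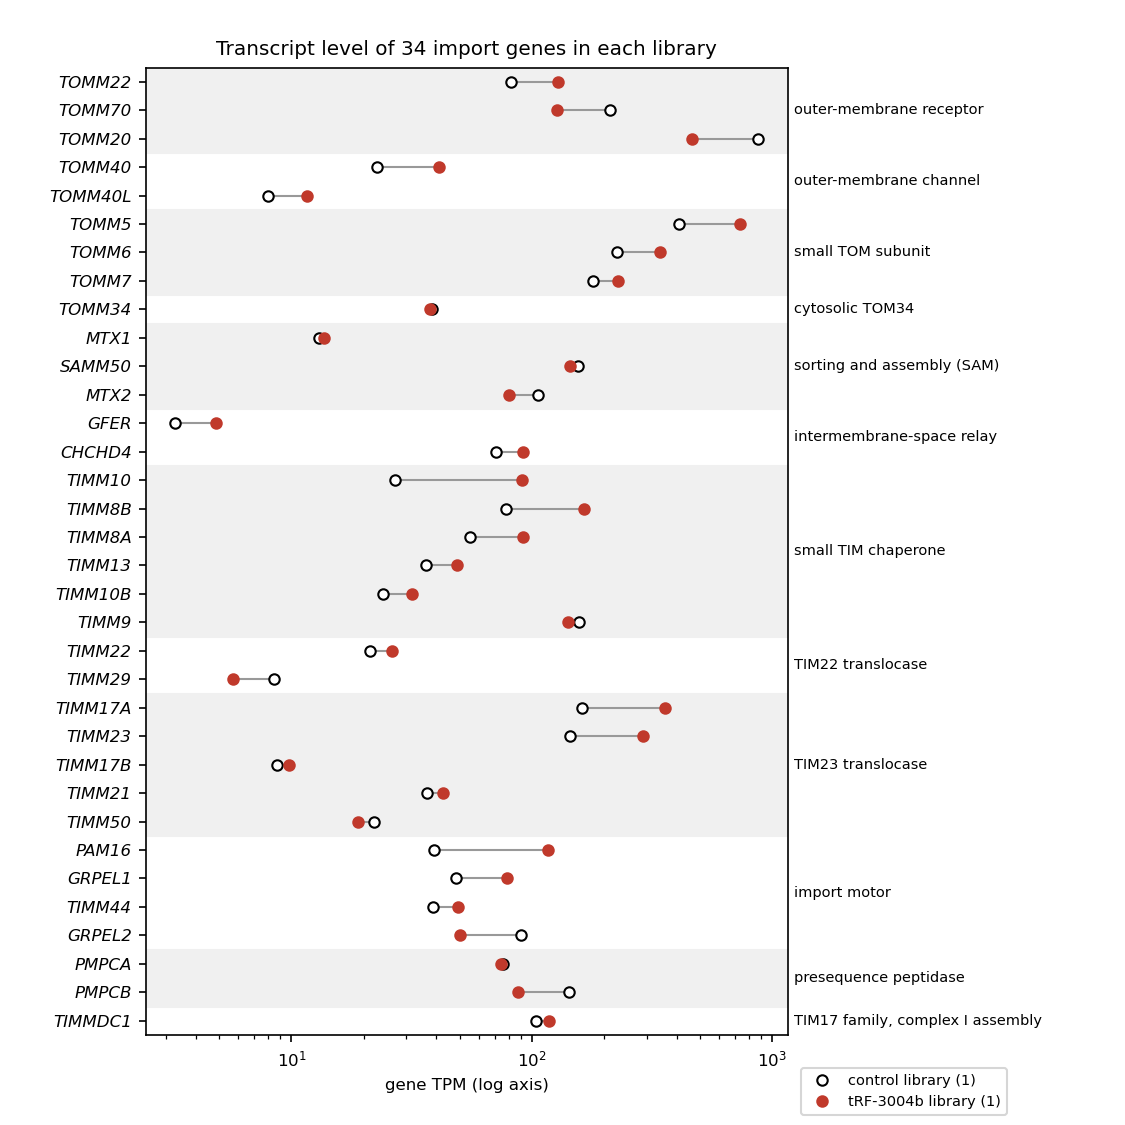
Gene TPM (x axis, log scale) of the 34 import genes (y axis, grouped by role) in the control library (open circles) and the tRF-3004b library (filled circles), 1 library each. TOMM20 is the highest in the control library at 874 TPM, and 23 of the 34 genes have the filled circle to the right.

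Of the 34 genes, 21 had 1 RefSeq transcript in the tables and 13 had several. Counts are shared among isoforms by estimation, so an isoform share is less certain than a gene's sum. TIMM9, TIMM8A and TIMM8B had at least 50 counts in each library and 2 or more transcripts that held at least 10% of them in 1 library or both, which for TIMM9 was the case in the tRF-3004b library alone. For TIMM9, the transcript of 1252 bases held 94.3% (interval 93.0 to 95.4) and 75.6% (interval 67.9 to 82.0) of the gene's counts. The transcript of 1151 bases, which met that share only through the tRF-3004b library, with 23 and 35 counts, held 1.51% (interval 0.939 to 2.21) and 22.8% (interval 16.3 to 30.0). For TIMM8B, the non-coding transcript of 1084 bases held 40.4% (interval 36.2 to 44.8) and 29.4% (interval 21.4 to 38.5), with overlapping intervals. For TIMM8A, the transcript of 2951 bases held 19.2% (interval 16.2 to 22.6) and 24.3% (interval 17.1 to 33.4), whose intervals overlap too.

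Promoters from RefSeq on GRCh38.p14 (250 bases before to 50 after the start) were matched for 31 import genes, all but TOMM5, TIMM8B and GRPEL1. Searched on both strands, the letters CCGGAAG, a core bound by ETS factors such as GABPA, stood in 14 of the 31 (45.2%). The share was 10.7% of 27305 promoters and 19.2% of the 10906 promoters of measured genes. The NRF1 core CGCATGCG, which is its own complement, stood in 3 of 31 (9.68%), against 2.19% and 3.97%. NRF1 and GABPA are known activators of nuclear genes for mitochondrial proteins. The ATF4 response element TGATGNAA stood in the promoters of PMPCB and TIMM22 (6.45%), against 3.67% and 1.61%, and the heat shock letters GAANNTTC in 0 of 31, against 6.87% and 4.76%.

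The windows below show each NRF1 match and, as examples from genes with high and low ratios, 5 of the ETS matches, with the motif in capitals and the strand of the gene. A match describes letters, not binding.
CHCHD4, NRF1, chr3:14124989-14125046, minus strand: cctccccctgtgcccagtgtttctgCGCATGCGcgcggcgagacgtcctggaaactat
TOMM7, NRF1, chr7:22822941-22822998, minus strand: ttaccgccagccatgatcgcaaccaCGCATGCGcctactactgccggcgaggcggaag
TIMM9, NRF1, chr14:58427628-58427685, minus strand: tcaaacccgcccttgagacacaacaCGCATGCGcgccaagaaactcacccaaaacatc
TOMM70, ETS, chr3:100401162-100401218, minus strand: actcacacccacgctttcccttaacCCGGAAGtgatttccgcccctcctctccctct
GRPEL2, ETS, chr5:149345327-149345383, plus strand: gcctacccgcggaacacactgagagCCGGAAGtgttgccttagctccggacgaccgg
TOMM6, ETS, chr6:41787589-41787645, plus strand: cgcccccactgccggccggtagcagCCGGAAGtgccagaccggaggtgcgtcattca
TIMM10, ETS, chr11:57530778-57530834, minus strand: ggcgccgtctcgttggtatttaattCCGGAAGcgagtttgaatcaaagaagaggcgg
TIMM23, ETS, chr10:45972416-45972472, plus strand: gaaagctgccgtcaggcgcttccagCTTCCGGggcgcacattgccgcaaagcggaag

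The NRF1 core lay 151 bases before the start in CHCHD4, 124 in TOMM7 and 129 in TIMM9. The ETS match printed for TIMM23 lies on the opposite strand, and its promoter holds a second match on the gene's own strand, just after the start. Import genes with the ETS letters spanned the whole range of the 34 genes' log2 ratios, from -0.58 for TOMM20 to 2.08 for TIMM10. Their median was 0.42. Those without ran from 0.13 to 1.90, with a median of 0.67, so every import gene below 0 held the letters. TOMM5, TIMM8B and GRPEL1, whose promoters were not matched, are in neither group and stood at 1.18, 1.37 and 1.05. The part of the letters in these values was not tested. In the control library the median TPM was 97 with the letters and 38.7 without, and the median transcript length 2002 and 1673 bases.

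Other genes of mitochondrial import and protein quality control lay on both sides of 0. Of 23 measured genes of motor, carrier, insertase and protease functions, MTX3 among them, 12 were above 0 (44.5% of all genes) and 11 below. The median log2 ratio of the 23 was 0.02. The highest were IMMP1L, a subunit of the inner membrane peptidase, at 1.33 (276 and 62 counts) and TMEM126A at 1.32 (399 and 89 counts). The lowest were the insertase OXA1L at -0.87 (interval -1.21 to -0.55) and the matrix protease LONP1 at -0.85 (interval -1.23 to -0.49). Their median length was 2492 bases, and with the length trend removed their median was 0.05. Of the 8 genes of MICOS, the complex that shapes cristae and contacts SAM and TOM, 5 were above 0 (44.5% of all genes), with a median of 0.12. MICOS10 stood at 0.89 and APOO at 0.49, while IMMT, its central subunit, stood at -0.53 and MICOS13, with 71 and 5 counts, at -0.33 (interval -2.01 to 0.95). The median length of the 8 genes was 2308 bases, and with the length trend removed their median was 0.01.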

How the data were processed

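Poly-A RNA was sequenced from 2 HEK293T libraries, 1 per group. The submitters' processing notes name kallisto 0.46.1 and GRCh38. For each of 70866 transcripts the authors deposited an estimated count and a TPM value, per the file headers. Annotation release, trimming and strand setting: not given in the sources used here. Symbols came from RefSeq (70245 transcripts) and GENCODE 29 (309). The estimated counts were added up by symbol and rounded, TPM was added up too, and 312 unnamed transcripts (0.0608% and 0.0617% of counts) were left out. Libraries were scaled with TMM factors (edgeR 4.0.16, R 4.3.3; 1.02 and 0.983). No edgeR test was run, since 1 library per group gives no spread. Log2 ratios have 0.5 counts added at a common library size; intervals are without it. Length is the count-weighted transcript length, and its trend is a lowess fit (statsmodels 0.14.6) over all genes. Gene coordinates are RefSeq's (GRCh38.p14). The 3' UTRs came from GENCODE 29, as did the shared 31-base words, which were pooled over each gene's GENCODE transcripts. Alternatives were other scalings (DESeq2 1.42.0), filters, pseudocounts, TPM, length and sequence sharing. The computations were tested on simulated counts. All 34 members were named, with the 2 highest and 2 lowest genes of each further list. Members and lists were chosen with earlier results of these data known. The labels name no molecular identifiers, so reads may not be independent molecules and intervals cover counting error only.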

Additional observations from a re-analysis of the deposited data

How the results depend on the processing

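No paired analysis was possible because each group has 1 library, and for the same reason none could be left out. Each of these alternatives was run: size factors from DESeq2 or from total counts, a CPM filter of 5 or of 1 count only, 5 counts added, gene TPM with 1 added, removal of the length trend, and sums with genes sharing sequence. Over these, the import genes' median ran from 0.34 (TPM) to 0.70 (DESeq2 size factors), and the number at least 2-fold lower was 0 in each. The number at least 2-fold higher was 9, with 8 by total counts, 10 by DESeq2 size factors, 5 with TPM and 4 with the length trend removed. With TPM, PMPCA went to -0.026 and SAMM50 to -0.11, from intervals above 0; under the other alternatives no gene whose interval lay away from 0 changed sign. With the CPM filter of 5, 31 of 34 genes were left. Depth of the tRF-3004b library limits TIMM29, TIMM17B and GFER most, with 7, 9 and 11 counts. Their intervals span 2.0 to 2.45 on the log2 scale.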
